A study of Mus musculus with 10 samples.

Results

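A set of 10 genes of LPS sensing and Toll-like receptor (TLR) signaling was followed across 10 arrays of bone marrow (BM)-derived allergic effector cells. The members were Tlr4, Cd14, Ly96, Tlr2, Tlr6, Tlr13, Myd88, Ticam1, Irak2 and Irak3, 10 of the 19937 genes that could be named from probe sets with a single gene symbol. They were picked by symbol as parts of the LPS receptor, its adaptors and kinases, and related TLRs, and each was read by 1 probe set. Signals are log2 values, so that a difference of 1 is a doubling, and levels of different genes are not compared because probe sets differ in brightness.

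The study compared Slpi-/- mice, which lack the secretory leukocyte protease inhibitor, with C57BL/6 (B6) mice in BM-derived eosinophils (BMEos), BM-derived basophils (BMBs) and mast cells. Each of the 10 conditions had 1 array, and both genotypes were hybridized in the same settings: BMEos given LPS for 3 h, BMEos without LPS, BMBs loaded with anti-TNP-IgE over 1 h before TNP-OVA was added for 12 h (called IgE here), BMBs without stimulation, and mast cells without stimulation. BMEos were grown with SCF and Flt3 ligand and then IL-5, BMBs were the c-kit- DX5+ cells of an IL-3 culture, and mast cells came from a long IL-3 culture. The age of the mice and how many mice or cultures each array stands for are not given in the sources used here, so the 2 genotypes, or the stimulated and unstimulated states, serve as the replicates of each comparison, and the p-values measure the spread between these arrays, which may be technical.

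Eosinophil markers matched the labels, and basophil and mast cell markers were shared between BMBs and mast cells. All 6 measured eosinophil markers lay above background on the 4 BMEos arrays and at most 2 on the others, and all 7 basophil markers did so on the 4 BMB arrays, 5 on the mast cell arrays and 3 to 4 on the BMEos arrays. The log2 sum of the basophil markers was 14.54 to 14.74 in BMBs and 13.29 to 13.35 in mast cells. Of 8 mast cell markers, 6 to 7 were above background in mast cells, 6 in BMBs and 4 to 5 in BMEos. Olfactory receptor genes, which these cells should not use, set the background of each array: the 95th percentile of their 1027 signals lay at 5.56 to 5.78. The 4 measured sex-linked genes split the arrays by LPS: Xist read 9.66 in Slpi-/- and 9.72 in B6 BMEos with LPS and at most 4.90 on the other 8 arrays, while Eif2s3y, Kdm5d and Uty were above background on those 8 arrays and not with LPS. The sex of the donors and LPS therefore cannot be told apart. The unstimulated B6 BMB array stood apart in the granule gene Mpo, which read 8.84 there and at most 6.43 on the other 9 arrays.

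TLRs are membrane receptors of the innate immune system, each of which recognizes a class of microbial molecules. LPS of Gram-negative bacteria is handed by CD14 to the complex of TLR4 and its co-receptor MD-2, which is encoded by Ly96. The signal runs through the adaptor MyD88 and the IRAK kinases to NF-κB, and, from endosomes, through the adaptor TRIF, encoded by Ticam1, to interferon genes. IRAK-M, encoded by Irak3, is a brake on this route. Eosinophils, basophils and mast cells are effector cells of allergy and of the defense against parasites.

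Promoter sequence is shown for Tlr2, Myd88 and Irak2, which were all higher with LPS and have 1 promoter window each in the RefSeq table of GRCm38.p6. That table held 9 windows for 7 of the 10 genes, each window from 250 bases before to 50 after a start site. The motifs searched on both strands were 4: the NF-κB consensus, the interferon response element core (GAAA, any 2 bases, GAAA), the C/EBP half-site pair TTGCNNAA and the AP-1 type site TGANTCA. The stretches run from 250 bases before the start site through the second transcribed base, and capitals mark motif matches. They lie at chr3:83841607-83841858 on the minus strand for Tlr2, at chr9:119340017-119340268 on the minus strand for Myd88 and at chr6:113638217-113638468 on the plus strand for Irak2.
Tlr2: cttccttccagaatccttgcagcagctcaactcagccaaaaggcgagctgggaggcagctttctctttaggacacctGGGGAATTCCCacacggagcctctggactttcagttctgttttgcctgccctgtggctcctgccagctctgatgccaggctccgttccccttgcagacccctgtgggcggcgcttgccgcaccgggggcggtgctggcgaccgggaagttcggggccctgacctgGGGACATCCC
Myd88: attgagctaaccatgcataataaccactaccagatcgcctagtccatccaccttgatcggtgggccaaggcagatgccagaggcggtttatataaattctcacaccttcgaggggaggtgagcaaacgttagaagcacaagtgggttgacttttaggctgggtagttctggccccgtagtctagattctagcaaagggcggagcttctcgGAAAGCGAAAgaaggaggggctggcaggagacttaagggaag
Irak2: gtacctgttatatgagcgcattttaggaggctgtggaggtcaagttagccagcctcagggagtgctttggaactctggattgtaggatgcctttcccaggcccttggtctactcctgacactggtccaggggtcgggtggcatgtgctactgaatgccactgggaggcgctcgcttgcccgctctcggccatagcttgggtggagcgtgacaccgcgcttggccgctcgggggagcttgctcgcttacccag
In Tlr2 the capitals are NF-κB matches, of which 2 overlap by all but 1 base between 173 and 163 bases before the start site and another spans the start site itself. The RefSeq gene model of Tlr2 reaches upstream to chr3:83841824, so that this start site is not its outermost one and the NF-κB matches lie within the model. In Myd88 the capitals are a match to the interferon response element core 40 to 31 bases before the start site, and the Irak2 stretch held none of the motifs. Over all 32851 windows of the table, 8.46% held the NF-κB consensus, 3.44% the interferon response element core, 10.8% TTGCNNAA and 7.81% TGANTCA. Of the 9 windows of the members, 1 held the NF-κB consensus, 2 the interferon response element core (Myd88 and Tlr6), 3 TTGCNNAA (Irak3, Tlr13 and Tlr6) and 0 TGANTCA.

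Unstimulated cells were compared first, with the question of which sensing genes each cell type carried at rest. Tlr4 was high in BMEos, Tlr13 in BMEos and BMBs, Tlr2 and Tlr6 in BMBs, and Irak2 in mast cells. Of the 9 genes that could be tested, 5 were higher and 2 lower in BMEos than in mast cells, where 51.1% of all 12998 genes tested passed limma at an adjusted p under 0.05, 24.3% higher and 26.8% lower. In BMBs against mast cells 4 were higher and 1 lower (36.7% of all genes passed, 18.8% higher and 17.9% lower), and in BMEos against BMBs 2 were higher and 5 lower (39.7% of all genes passed, 18.6% higher and 21.2% lower). The median difference of the 9 was 0.53, 0.68 and -0.49 in these 3 comparisons, against -0.04, -0.01 and -0.03 over all genes tested. Cd14 was below background on all 6 unstimulated arrays and was not tested.

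**Figure D1:**
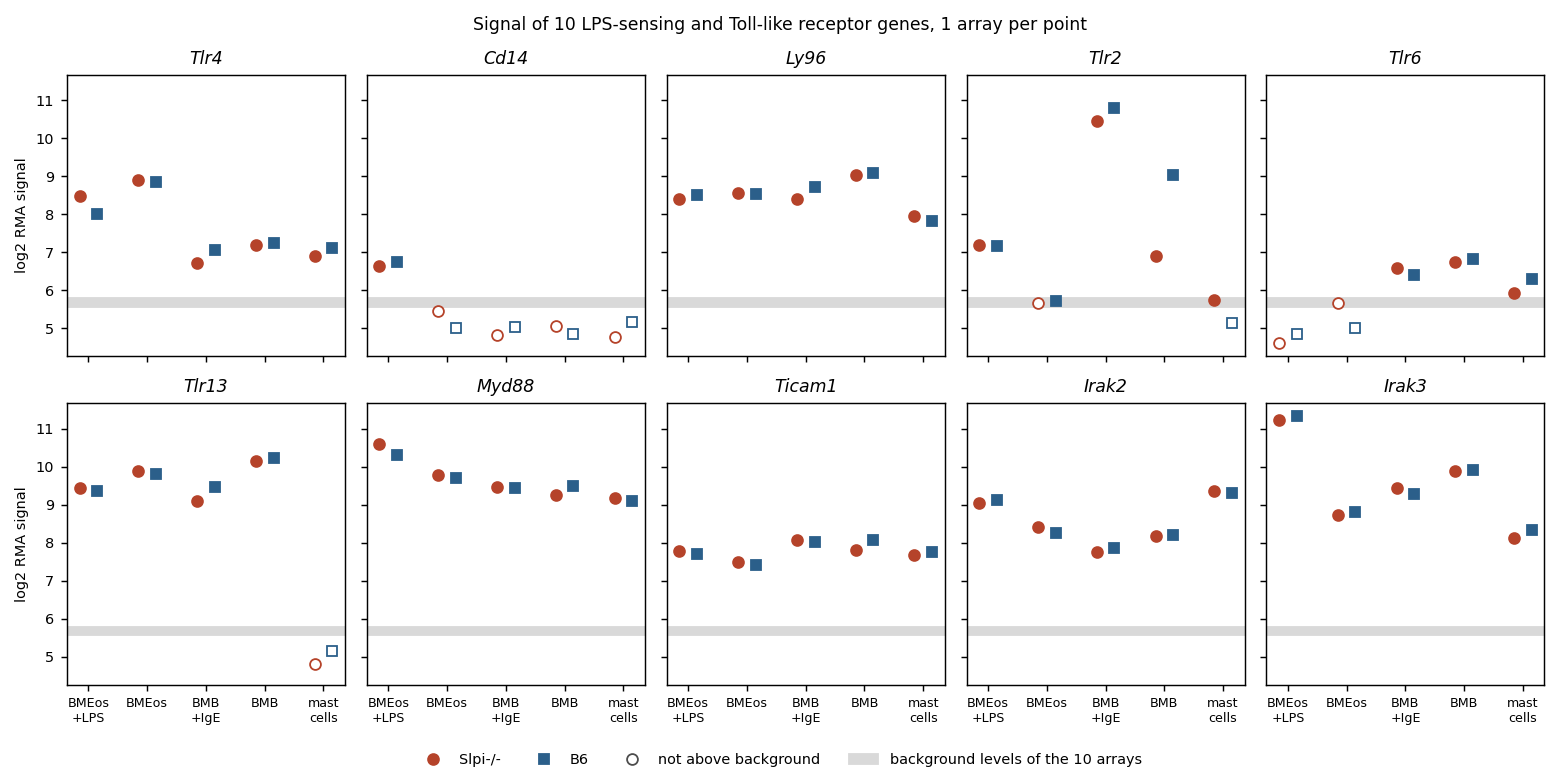
Log2 RMA signal of the 10 genes (vertical axes) in 5 cell and stimulus conditions (horizontal axes), 1 array per point, with Slpi-/- as circles and B6 as squares. Open symbols lie at or under the background of their own array, and the grey band spans the backgrounds of the 10 arrays, 5.56 to 5.78. Cd14 is above background with LPS only, Tlr13 is below it in mast cells, and the Tlr2 symbols of unstimulated BMBs stand far apart, at 6.90 in Slpi-/- and 9.04 in B6.

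Tlr4, the signaling receptor for LPS, had signals of 8.91 in Slpi-/- and 8.86 in B6 BMEos, 7.18 in Slpi-/- and 7.24 in B6 BMBs, and 6.89 in Slpi-/- and 7.11 in B6 mast cells. Both BMEos arrays lay above all 4 others, and BMBs and mast cells lay close together. The signal was 3.70-fold higher in BMEos than in mast cells (log2 difference 1.89, 95% interval 1.63 to 2.14, adjusted p = 1.2e-05 from limma) and 3.20-fold higher in BMEos than in BMBs (log2 difference 1.68, adjusted p = 4.22e-05 from limma). BMBs and mast cells differed by 0.21 (interval -0.05 to 0.47, adjusted p = 0.182 from limma).

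Ly96, whose product MD-2 binds the lipid part of LPS on TLR4, read 8.57 in Slpi-/- and 8.53 in B6 BMEos, 9.04 in Slpi-/- and 9.08 in B6 BMBs, and 7.96 in Slpi-/- and 7.82 in B6 mast cells. The 3 cell types did not overlap, in the order BMBs, BMEos, mast cells. Ly96 was higher by 0.66 in BMEos (adjusted p = 0.00138 from limma) and by 1.17 in BMBs (adjusted p = 0.000141 from limma) than in mast cells, and BMEos lay 0.51 under BMBs (log2 difference -0.51, adjusted p = 0.00616 from limma). The receptor gene and the co-receptor gene had different cell type orders, with Tlr4 highest in BMEos and Ly96 highest in BMBs. Cd14, which encodes the LPS-binding protein that passes LPS on to MD-2, read 5.45 in Slpi-/- and 5.00 in B6 BMEos and 4.77 to 5.16 on the BMB and mast cell arrays, at most the background of each array.

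Tlr13, an endosomal receptor for bacterial ribosomal RNA in mice, divided mast cells from the others. Its signals were 9.88 in Slpi-/- and 9.81 in B6 BMEos, 10.16 in Slpi-/- and 10.23 in B6 BMBs, and 4.80 in Slpi-/- and 5.15 in B6 mast cells. Both mast cell arrays were below background, so only a lower limit of the fold can be given, taken from the mean log2 signal of the bright arrays and, on each mast cell array, the higher of background and signal. The Tlr13 signal was at least 17.3-fold higher in BMEos (adjusted p = 4.49e-07 from limma) and at least 22.1-fold higher in BMBs (adjusted p = 7.33e-07 from limma) than in mast cells. BMEos and BMBs differed by -0.35 (interval -0.65 to -0.05, adjusted p = 0.0636 from limma), which passed under 3 of 10 alternatives, after quantile normalization for one (adjusted p = 0.0416 from limma).

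Tlr2 and Tlr6 encode the chains of a receptor pair for bacterial lipopeptides. Tlr2 read 5.67 in Slpi-/- and 5.71 in B6 BMEos, 6.90 in Slpi-/- and 9.04 in B6 BMBs, and 5.75 in Slpi-/- and 5.14 in B6 mast cells. The BMB arrays were the highest but differed widely from each other, and 1 of the 2 BMEos arrays and 1 of the 2 mast cell arrays were above background. BMBs exceeded mast cells by 2.52 (interval 1.19 to 3.86, adjusted p = 0.0123 from limma), and BMEos lay below BMBs by a log2 difference of -2.28 (interval -3.62 to -0.95, adjusted p = 0.0168 from limma). The unstimulated B6 BMB array had the highest Mpo and Elane signals. Without it, the Tlr2 difference was 1.31 in BMBs against mast cells and -1.07 in BMEos against BMBs. The Ticam1 difference in BMEos against BMBs was -0.36 there, and its call was lost. BMBs then had 1 array and no spread of their own, so calls in that fit do not measure the spread of BMBs.

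Tlr6 was above background on the BMB and mast cell arrays and not in BMEos. It had signals of 5.65 in Slpi-/- and 5.00 in B6 BMEos, 6.75 in Slpi-/- and 6.83 in B6 BMBs, and 5.93 in Slpi-/- and 6.29 in B6 mast cells. BMBs were at least 2.18-fold above BMEos (adjusted p = 0.00213 from limma) and mast cells at least 1.36-fold above BMEos (adjusted p = 0.0231 from limma). BMBs and mast cells differed by 0.68 (interval 0.15 to 1.21, adjusted p = 0.0521 from limma), a call that other settings made. Tlr1, which encodes the other partner of TLR2 and was a listed pathway gene, was above background in BMBs alone among unstimulated cells, at 6.47 in Slpi-/- and 6.88 in B6 BMBs, and at least 2.01-fold above BMEos there.

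The adaptor genes varied little between cell types. Myd88, which links most TLRs to the IRAK kinases, read 9.78 in Slpi-/- and 9.71 in B6 BMEos, 9.25 in Slpi-/- and 9.50 in B6 BMBs, and 9.18 in Slpi-/- and 9.11 in B6 mast cells. BMEos were highest, by 0.60 over mast cells (adjusted p = 0.00478 from limma) and by 0.37 over BMBs (adjusted p = 0.0446 from limma), the second of which was lost after quantile normalization (adjusted p = 0.0604 from limma). Ticam1 read 7.49 in Slpi-/- and 7.43 in B6 BMEos, 7.81 in Slpi-/- and 8.08 in B6 BMBs, and 7.67 in Slpi-/- and 7.76 in B6 mast cells. It was lower in BMEos than in BMBs (log2 difference -0.49, adjusted p = 0.0135 from limma), with the exception already named, and neither cell type passed against mast cells.

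The IRAK genes ran in opposite orders. Irak2, a kinase that sustains NF-κB signaling, read 8.40 in Slpi-/- and 8.26 in B6 BMEos, 8.18 in Slpi-/- and 8.20 in B6 BMBs, and 9.35 in Slpi-/- and 9.30 in B6 mast cells. Mast cells were the highest, and Irak2 was lower by a log2 difference of -0.99 in BMEos (adjusted p = 0.000168 from limma) and of -1.14 in BMBs (adjusted p = 0.000148 from limma). Irak3, the inhibitory member, read 8.73 in Slpi-/- and 8.81 in B6 BMEos, 9.90 in Slpi-/- and 9.91 in B6 BMBs, and 8.14 in Slpi-/- and 8.35 in B6 mast cells. BMBs were the highest, 3.17-fold over mast cells (log2 difference 1.66, adjusted p = 3.06e-05 from limma), and BMEos stood between them, 1.45-fold over mast cells (log2 difference 0.53, adjusted p = 0.00400 from limma).

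**Figure D2:**
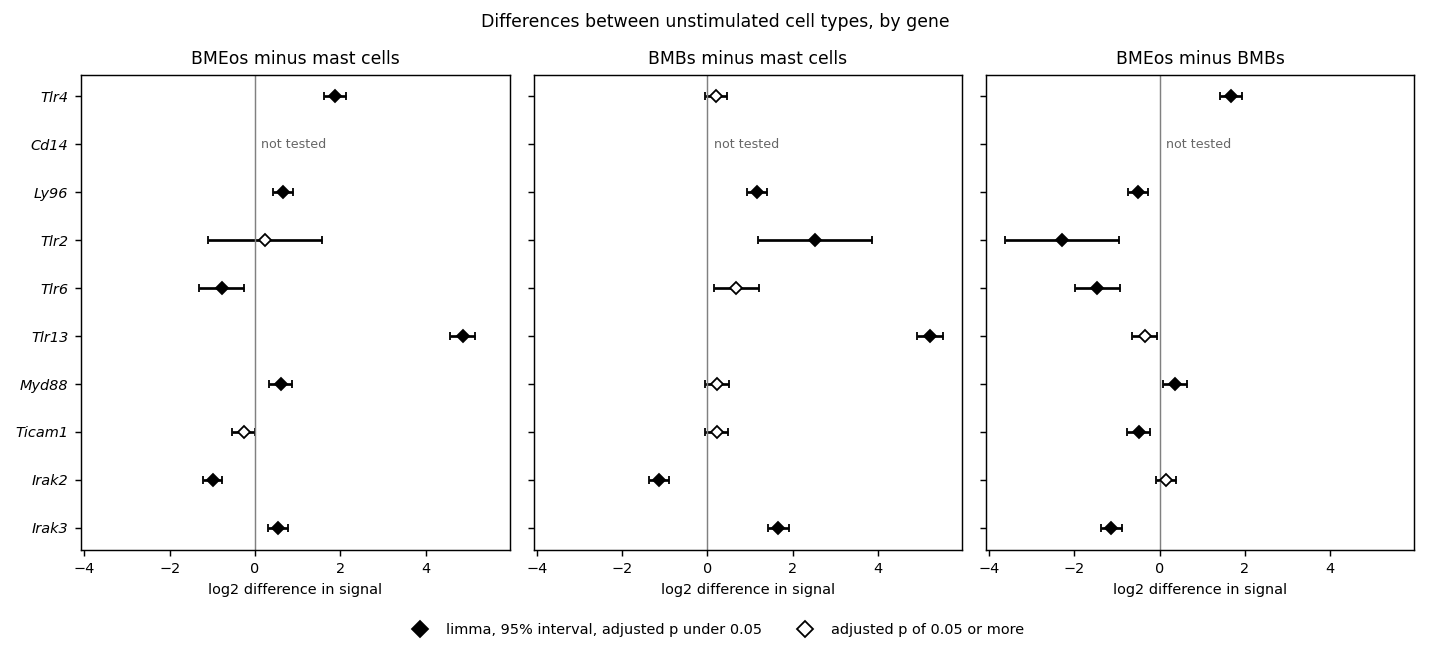
Log2 differences in signal between unstimulated cell types (horizontal axes) for each gene (vertical axis), from limma on 6 arrays. Diamonds are estimates, filled where the adjusted p is under 0.05, and bars are 95% intervals. Tlr13 lies at 4.87 and 5.22 over mast cells, values that include signals below background, Tlr4 is to the right in both panels with BMEos on top, and the intervals of Tlr2 are the widest.

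Markers of other cell types also differed between these arrays. Of 11 measured monocyte and macrophage markers, 6 lay above background on both unstimulated BMEos arrays, 7 on both BMB arrays and 2 to 3 on the mast cell arrays, with summed signals on the log2 scale of 10.59 to 10.86, 11.75 to 11.86 and 9.05 to 9.07. The macrophage genes C1qa and Ms4a7 were not above background on any of these 6 arrays, whereas Csf1r read 9.62 in Slpi-/- and 9.43 in B6 BMEos. Of 10 neutrophil markers, 8 to 9 were above background in BMEos, 5 to 7 in BMBs and 0 to 2 in mast cells. The part of these cells in the differences was not tested, and in bulk samples fewer cells of a type and less RNA per cell cannot be told apart.

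LPS was the stimulus that engages TLR4 itself. With LPS, Irak3, Tlr2, Cd14, Irak2 and Myd88 were higher in BMEos, and Tlr4 and Tlr13 were lower, in both genotypes. These were 5 members higher and 2 lower out of 10, while 28.9% of the 13571 genes tested passed, 12.7% higher and 16.2% lower (1724 and 2202 genes; with arrays centred on their medians, 1203 and 2756). The median difference of the 10 members was 0.50, against 0.02 over all genes tested. Without Cd14, which was tested only through the LPS arrays, 4 members were higher and 2 lower out of 9, with a median of 0.29. For all 7 the sex of the donors cannot be told apart from LPS, and Tlr13 lies on the X chromosome. Of 370 tested X-linked genes, 47 were higher and 55 (14.9%) lower with LPS, with a median difference of 0.00.

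Tlr4 read 8.49 in Slpi-/- and 8.01 in B6 BMEos with LPS, against 8.91 in Slpi-/- and 8.86 in B6 BMEos without LPS. The arrays with LPS were the lower ones in each genotype, by -0.42 in Slpi-/- and by -0.85 in B6. Over both, Tlr4 fell by 0.63 on the log2 scale (interval -0.96 to -0.31, adjusted p = 0.0165 from limma), 1.55-fold. Without the B6 pair the call was lost (log2 difference -0.42, adjusted p = 0.164 from limma). At its lowest, in B6 with LPS, Tlr4 was still above the BMB and mast cell arrays.

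Cd14 showed the opposite course. It read 6.63 in Slpi-/- and 6.73 in B6 BMEos with LPS, above background on both arrays, and 5.45 in Slpi-/- and 5.00 in B6 BMEos without LPS, on neither. Since Cd14 was above background on no other array, it entered the test through the LPS arrays alone and had to differ there. The signal was at least 2.02-fold higher with LPS (mean 6.68 against a measured mean of 5.23 without LPS, adjusted p = 0.0016 from limma). The monocyte and macrophage markers had summed log2 signals of 11.35 to 11.42 with LPS and 10.59 to 10.86 without, with 7 and 6 of 11 above background, and their part in the Cd14 signal was not tested.

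Ly96, the third piece of the LPS receptor, read 8.40 in Slpi-/- and 8.51 in B6 BMEos with LPS, and 8.57 in Slpi-/- and 8.53 in B6 BMEos without LPS. These 4 values lay within a narrow range, and the difference was -0.10 (interval -0.36 to 0.16, adjusted p = 0.528 from limma). Of the genes of the receptor complex, Tlr4 was lower and Cd14 higher with LPS, and Ly96 did not pass.

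Tlr2 read 7.18 in Slpi-/- and 7.15 in B6 BMEos with LPS, against 5.67 in Slpi-/- and 5.71 in B6 BMEos without LPS. Both arrays with LPS stood well clear of those without, of which 1 was above background. Tlr2 was higher with LPS by 1.48 (interval 0.61 to 2.34, adjusted p = 0.0256 from limma). The log2 difference was 1.51 in the Slpi-/- pair and 1.44 in the B6 pair. The fit shares its spread with the BMB arrays, whose Tlr2 differences with IgE were 3.54 in Slpi-/- and 1.77 in B6. The call was lost without either BMEos pair, in fits that take their spread from the BMB arrays alone. Tlr2 passed with LPS under 7 of 11 alternatives. Its partner Tlr6 was below background on all 4 BMEos arrays, at 4.60 in Slpi-/- and 4.86 in B6 with LPS and 5.65 in Slpi-/- and 5.00 in B6 without.

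Tlr13 read 9.45 in Slpi-/- and 9.35 in B6 BMEos with LPS, and 9.88 in Slpi-/- and 9.81 in B6 BMEos without LPS. The arrays with LPS were lower by almost the same amount in each genotype, and Tlr13 fell by 0.44 on the log2 scale (interval -0.70 to -0.18, adjusted p = 0.0271 from limma). Neither pair alone passed: the adjusted p from limma was 0.167 without the B6 pair and 0.148 without the Slpi-/- pair.

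Among the adaptors, Myd88 read 10.60 in Slpi-/- and 10.32 in B6 BMEos with LPS, and 9.78 in Slpi-/- and 9.71 in B6 BMEos without LPS. The LPS arrays had the 2 highest Myd88 signals of the series. The difference was 0.71 (interval 0.44 to 0.99, adjusted p = 0.0061 from limma), 1.64-fold, and without the Slpi-/- pair it was 0.61 and did not pass (adjusted p = 0.0712 from limma). Ticam1 read 7.79 in Slpi-/- and 7.71 in B6 BMEos with LPS, and 7.49 in Slpi-/- and 7.43 in B6 BMEos without LPS, a difference of 0.29 (interval 0.03 to 0.56, adjusted p = 0.0946 from limma).

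The inhibitory IRAK gene showed the largest difference of the 10 members. Irak3 read 11.24 in Slpi-/- and 11.34 in B6 BMEos with LPS, against 8.73 in Slpi-/- and 8.81 in B6 BMEos without LPS. The LPS arrays were the 2 highest of the 10, above the BMB arrays that led at rest, and the gap was 2.51 in Slpi-/- and 2.52 in B6. Irak3 was 5.72-fold higher with LPS (log2 difference 2.52, interval 2.29 to 2.75, adjusted p = 3.08e-05 from limma). Irak2 read 9.05 in Slpi-/- and 9.12 in B6 BMEos with LPS, and 8.40 in Slpi-/- and 8.26 in B6 BMEos without LPS, and it was 1.68-fold higher (log2 difference 0.75, interval 0.51 to 0.99, adjusted p = 0.00303 from limma). With LPS, Irak2 in BMEos remained below the mast cell arrays at rest.

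**Figure D3:**
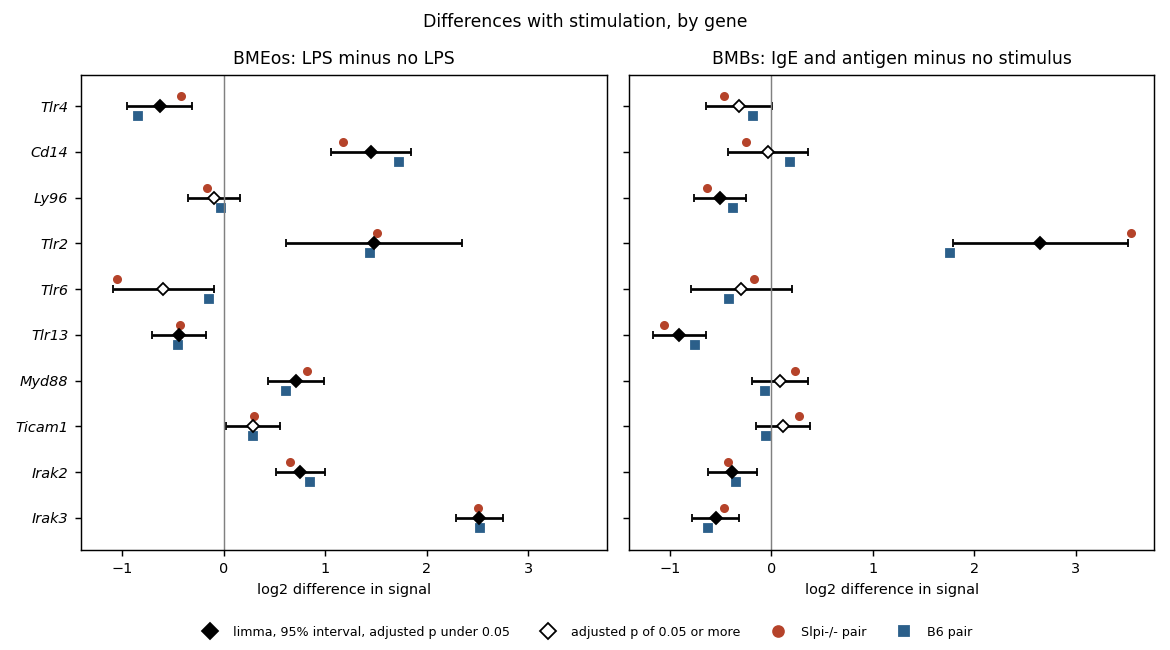
Log2 differences in signal with stimulation (horizontal axes) for each gene (vertical axis), in BMEos with LPS minus without and in BMBs with IgE minus without. Diamonds are limma estimates, filled where the adjusted p is under 0.05, bars are 95% intervals, circles are the Slpi-/- pair and squares the B6 pair. Irak3 lies at 2.52 with LPS and at -0.55 with IgE, and Tlr2 at 1.48 with LPS and 2.65 with IgE.

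IgE and antigen, which act through the high-affinity IgE receptor and not through a TLR, were given to BMBs. Tlr2 was higher with IgE, and Tlr13, Irak3, Ly96 and Irak2 were lower, in both genotypes. These were 1 member higher and 4 lower out of 10, while 22.8% of all genes tested passed, 12.2% higher and 10.6% lower. The median difference of the members was -0.31, against -0.02 over all genes tested. Some markers of other cell types were lower with IgE as well, among them Ccr2 (log2 difference -2.24), Mrc1 (-0.87), H2-Aa (-0.94), Ccr3 (-1.66) and Ly6g (-1.48). The neutrophil markers all had negative differences, and their log2 sum was 11.16 to 11.36 with IgE and 12.64 to 12.77 without. Of them Ly6g alone passed, while Mpo (-1.69), Elane (-1.14), Mmp8 (-1.13), Camp and Ltf were among those that did not. In the other lists the dendritic cell marker Itgax was higher (0.54), and Csf1r (-0.72), Cd68, Fcgr1, Lyz2 and H2-Ab1 did not pass. C1qa did not pass either, but it was not above background in unstimulated BMBs and could show no fall. The 11 monocyte and macrophage markers had log2 sums of 11.70 in Slpi-/- and 11.13 in B6 BMBs with IgE, and 11.86 in Slpi-/- and 11.75 in B6 BMBs without, with 7 above background on each array, and the part of these cells in the members' differences was not tested.

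Tlr2 read 10.44 in Slpi-/- and 10.80 in B6 BMBs with IgE, against 6.90 in Slpi-/- and 9.04 in B6 BMBs without stimulation. The IgE arrays were the 2 highest of the series and close to each other, unlike the unstimulated ones. Tlr2 was 6.29-fold higher with IgE (log2 difference 2.65, interval 1.79 to 3.52, adjusted p = 0.00451 from limma), by 3.54 in Slpi-/- and by 1.77 in B6. Leaving out either BMB pair takes the spread from the BMEos arrays alone, so such fits do not show whether the call holds. Beside the Tlr2 rise, 3 of 10 neutrophil markers were above background on each BMB array with IgE, and 5 in Slpi-/- and 7 in B6 BMBs without. Their part was not tested.

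Tlr13 read 9.10 in Slpi-/- and 9.48 in B6 BMBs with IgE, and 10.16 in Slpi-/- and 10.23 in B6 BMBs without stimulation. The IgE arrays were lower in both genotypes, and Tlr13 fell by 0.91 on the log2 scale (interval -1.17 to -0.64, adjusted p = 0.00313 from limma). Ly96 read 8.40 in Slpi-/- and 8.70 in B6 BMBs with IgE, and 9.04 in Slpi-/- and 9.08 in B6 BMBs without stimulation. It fell by 0.51 (adjusted p = 0.0196 from limma), a call that was lost without the Slpi-/- pair (adjusted p = 0.166 from limma).

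Irak3 read 9.43 in Slpi-/- and 9.28 in B6 BMBs with IgE, against 9.90 in Slpi-/- and 9.91 in B6 BMBs without stimulation. The IgE arrays lay below both others, and Irak3 fell by 0.55 on the log2 scale (interval -0.78 to -0.32, adjusted p = 0.01 from limma), which did not pass without the B6 pair (adjusted p = 0.0657 from limma). Irak2 read 7.76 in Slpi-/- and 7.85 in B6 BMBs with IgE, and 8.18 in Slpi-/- and 8.20 in B6 BMBs without stimulation. It fell by 0.39 (adjusted p = 0.0377 from limma), the weakest call of the 5, which was lost with no filter on signal (adjusted p = 0.0738 from limma), with the 4 BMB arrays alone (adjusted p = 0.0526 from limma) and without the B6 pair or the Slpi-/- pair (adjusted p = 0.108 and 0.212 from limma).

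The other 5 members did not pass with IgE. Tlr4 read 6.72 in Slpi-/- and 7.06 in B6 BMBs with IgE, and 7.18 in Slpi-/- and 7.24 in B6 BMBs without stimulation, a difference of -0.32 (interval -0.64 to 0.01). Tlr6 read 6.58 in Slpi-/- and 6.41 in B6 BMBs with IgE, and 6.75 in Slpi-/- and 6.83 in B6 BMBs without stimulation, a difference of -0.30 (interval -0.79 to 0.20). These intervals leave room for a fall in each. Myd88 read 9.48 in Slpi-/- and 9.44 in B6 BMBs with IgE, and 9.25 in Slpi-/- and 9.50 in B6 BMBs without stimulation, and Ticam1 read 8.08 in Slpi-/- and 8.03 in B6 BMBs with IgE, and 7.81 in Slpi-/- and 8.08 in B6 BMBs without stimulation. Both adaptor genes overlapped between the states, and Cd14 was below background on all 4 BMB arrays.

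Whether the 2 stimuli differed was tested as the LPS difference in BMEos minus the IgE difference in BMBs, which differ in cell type, agent and time at once. Irak3 (3.07, adjusted p = 0.000111), Cd14 (1.48, adjusted p = 0.00736), Irak2 (1.14, adjusted p = 0.00339) and Myd88 (0.63, adjusted p = 0.0367) passed in limma, all in the direction of LPS, while 23% of all genes tested passed, 9.71% in that direction. In the other direction 0 members and 13.3% of all genes passed. Cd14 was tested only through the LPS arrays and was below background on the other 6 arrays of this comparison, so its value is no measured size, and the call had to follow from the filter. Tlr2, which was higher with either stimulus, had a difference of -1.18 (interval -2.40 to 0.05, adjusted p = 0.142 from limma), and Tlr4 of -0.31 (interval -0.77 to 0.15, adjusted p = 0.271 from limma). The call of Myd88 was lost with arrays centred on their medians (adjusted p = 0.0642 from limma) and with no filter on signal (adjusted p = 0.0655 from limma).

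Slpi-/- cells were set against B6 cells to ask whether SLPI, a known inhibitor of LPS responses in macrophages, changes the genes of LPS sensing. No member passed in limma in BMEos over both LPS states, in BMBs over both IgE states, in the difference between those cell types or over all 5 settings (0 of 10 in each), where 0.00737%, 0.00737%, 0.00737% and 0% of the 13571 genes passed. At an unadjusted p under 0.05 the counts were 0, 1 (Tlr2), 2 (Tlr2 and Tlr4) and 0 members, and the methods' t-test, not run on the difference between cell types, called 0 members in the other three, adjusted or not. Slpi itself read 6.55 in Slpi-/- and 11.42 in B6 unstimulated BMBs and 6.41 in Slpi-/- and 8.08 in B6 unstimulated BMEos, which checks those labels, and it was close to equal in mast cells, at 6.47 in Slpi-/- and 6.53 in B6.

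In BMEos the genotype differences were small for all members. They ranged from -0.09 for Irak3 (interval -0.32 to 0.14) to 0.26 for Tlr4 (interval -0.06 to 0.59, adjusted p = 0.907 from limma). For Myd88 the difference was 0.18 (interval -0.10 to 0.45), for Irak2 0.04 (interval -0.20 to 0.28) and for Ly96 -0.04 (interval -0.30 to 0.22). The interval of Tlr2 was wider, at -0.87 to 0.86 around -0.01. Its BMEos pairs differed by only -0.04 without LPS and 0.03 with LPS, and the fit shares its spread with the BMB arrays. The Tlr4 estimate came from the pair with LPS, which differed by 0.48, while the pair without differed by 0.05.

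Tlr2 in unstimulated BMBs was the exception. The unstimulated pair differed by -2.14, with 6.90 in Slpi-/- and 9.04 in B6, and the pair with IgE by -0.36, with 10.44 in Slpi-/- and 10.80 in B6. Among the 12262 genes above background in the unstimulated pair, 7 had a difference of at least this size, Tlr2 included. Of the 12262 genes, 96 differed at least 2-fold, and in the BMB pair with IgE 84 of 12165 did. The counts were 12 of 11645 in the unstimulated BMEos pair, 19 of 12460 with LPS, and 14 of 11847 in the mast cell pair. Over both BMB pairs the Tlr2 difference was -1.25 (interval -2.12 to -0.38, unadjusted p = 0.0119, adjusted p = 0.541 from limma), and it passed without the pair with IgE (adjusted p = 0.0303 from limma). It passed there against a spread shared with the other cell types, since 1 pair has none of its own.

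The B6 array of that pair was also the one with the highest Mpo and Elane signals. Mpo read 6.0 in Slpi-/- and 8.84 in B6 unstimulated BMBs, Elane 5.47 in Slpi-/- and 7.14 in B6, and Ngp 5.02 in Slpi-/- and 6.77 in B6. Of the 10 neutrophil markers, 5 in Slpi-/- and 7 in B6 were above background, and the log2 sum of all 10, led by Ly6g, was 12.77 in Slpi-/- and 12.64 in B6. The 9 dendritic cell markers had log2 sums of 11.21 in Slpi-/- and 10.22 in B6. With IgE, Mpo read 5.84 in Slpi-/- and 5.6 in B6 BMBs. The part of other cells in the Tlr2 difference was not tested.

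Differences between genotypes in the response to LPS rest on 1 pair each and have no test. The LPS difference in Slpi-/- minus that in B6 was 0.42 for Tlr4, -0.55 for Cd14, 0.21 for Myd88, -0.20 for Irak2, 0.07 for Tlr2, 0.03 for Tlr13 and -0.01 for Irak3. Every one of these 7 genes kept its direction in both genotypes, but they were the genes that passed over both pairs, a choice that favors this. The largest of these gaps belonged to Cd14, whose signal without LPS was below background.

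The other genes of the pathway were taken from 8 lists of 101 genes, of which 92 were measured. The shares of all genes given for each comparison above apply to them too. Counts include the members, and the medians stand beside 0.02 over all genes tested for LPS and -0.02 for IgE.

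Of 10 measured Toll-like receptor genes, 6 were above background on an array and tested. With LPS, 2 were higher, 2 lower and 2 did not pass (median -0.04). Tlr9, the endosomal receptor for bacterial DNA, was the receptor gene with the largest difference: it read 8.44 in Slpi-/- and 8.35 in B6 BMEos with LPS, against 6.22 in Slpi-/- and 5.96 in B6 BMEos without, a rise of 2.30 (adjusted p = 8.85e-05 from limma). Tlr3, Tlr7, Tlr8 and Tlr12 were above background on no array. With IgE, 1 was higher, 1 lower and 4 did not pass, and Tlr9 differed by -0.22 (adjusted p = 0.261 from limma).

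LPS-binding and accessory genes were higher with LPS in 4 of 7 tested, with 0 lower and a median of 0.99, or in 3 of 6 with a median of 0.70 without Cd14. Casp4, which encodes caspase-11, the cytosolic sensor of LPS, read 8.40 in Slpi-/- and 8.39 in B6 BMEos with LPS and was not above background without, a rise of at least 6.64-fold (adjusted p = 1.27e-05 from limma). Aoah, which encodes an enzyme that inactivates LPS, read 9.77 in Slpi-/- and 9.76 in B6 BMEos with LPS, against 8.44 in Slpi-/- and 8.57 in B6 BMEos without (difference 1.26, adjusted p = 0.0014 from limma). With IgE in BMBs 0 were higher and 2 lower, and Aoah fell by 1.03 (adjusted p = 0.00427 from limma). Cd180, a TLR4-like receptor that restrains LPS responses, did not pass with either stimulus, and it was higher by 1.23 in unstimulated BMEos than in BMBs (adjusted p = 0.00372 from limma).

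Of the 4 genes of TLR chaperones, Unc93b1, which carries endosomal TLRs to their compartment, was higher with LPS by 0.93 (adjusted p = 0.00365 from limma) and lower with IgE by a difference of -0.67 (adjusted p = 0.0145 from limma). Hsp90b1, which encodes the chaperone gp96, differed by 0.11 with LPS (adjusted p = 0.46 from limma) and was higher with IgE by 0.98 (adjusted p = 0.00242 from limma). The other two did not pass with either stimulus.

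Of 20 adaptor and kinase genes, 7 were higher, 1 lower and 12 did not pass with LPS (median 0.24). Irf7, a factor of interferon genes, had a difference of 4.19 (adjusted p = 1.27e-05 from limma), and Ikbke, which encodes a kinase of the same branch, of 3.30 (adjusted p = 4.23e-05 from limma). Map3k8, which encodes the kinase TPL2, was at least 5.93-fold higher with LPS (adjusted p = 3.32e-05 from limma). Tab1, which encodes a partner of the kinase TAK1, was the 1 gene that was lower, by a difference of -0.56 (adjusted p = 0.00713 from limma). With IgE 1 was higher, 2 lower and 17 did not pass (median -0.06).

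Negative regulators moved both ways. With LPS 9 of 18 were higher, 3 lower and 6 did not pass (median 0.27). Beside Irak3, the higher ones included Trim30a (difference 3.31, adjusted p = 4.23e-05 from limma), Nfkbia, which encodes the NF-κB inhibitor IκBα (2.97, adjusted p = 6.08e-05 from limma), and Zc3h12a, which encodes an RNase of cytokine transcripts (2.47, adjusted p = 8.71e-05 from limma). The 3 lower ones were Dusp1, a phosphatase of MAP kinases (difference -2.43), Zfp36, which destabilizes cytokine RNA (adjusted p = 0.000921 from limma), and Atf3, a repressor of TLR targets (-0.91), and all 3 had been higher in unstimulated BMEos than in BMBs, by 2.98, 1.61 and 2.0. With IgE 5 were higher, 4 lower and 9 did not pass, and Irak3 and Trim30a were among the lower ones.

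Target genes were the lists with the largest medians with LPS. Of 13 tested targets of the MyD88 route, 10 were higher and 1 lower (median 1.98), and of 9 tested TRIF and interferon targets, 8 were higher and 0 lower (median 2.70). Ifit1, Ifit3 and Rsad2 of the second list were above background only on the LPS arrays and so had to differ, and without them 5 of 6 were higher and 0 lower (median 2.41). Il6 read 10.16 in Slpi-/- and 9.94 in B6 BMEos with LPS and was below background without, a rise of at least 20.9-fold (adjusted p = 1.09e-05 from limma). Cxcl10, an interferon-induced chemokine gene, read 12.64 in Slpi-/- and 11.94 in B6 BMEos with LPS, against 5.78 in Slpi-/- and 5.59 in B6 BMEos without. Ptgs2, which encodes the cyclooxygenase COX-2, was the 1 MyD88 target that was lower with LPS (difference -1.97, adjusted p = 0.00157 from limma), and it was higher with IgE (2.69, adjusted p = 0.00136 from limma). With IgE 8 of the 13 MyD88 targets were higher (median 1.23). Without Csf2, which was above background only with IgE, these were 7 of 12 (median 1.45). Il1a stays in the MyD88 target counts and medians for both stimuli. It was above background only on the LPS and IgE arrays and was tested only through them. Of the 9 TRIF and interferon targets 0 were higher and 1 lower with IgE (median -0.19). Ifit1, Ifit3 and Rsad2 are in this count and median, although they were below background on every BMB array and were tested only through the LPS arrays. These 3 genes therefore say nothing of IgE. Cxcl9 was above background with IgE only and is in the counts of this list for both stimuli, though it passed with neither.

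IL-1 family receptors, of which the signaling ones share the MyD88 adaptor, were mostly lower. Of 5 tested, 4 were lower and 1 higher with LPS (median -1.15), and 3 lower and 0 higher with IgE (median -0.48). Il1r2, which encodes the decoy receptor of IL-1, fell by 2.02 on the log2 scale with LPS (adjusted p = 0.000103 from limma), and it was at least 19.5-fold higher in unstimulated BMEos than in BMBs.

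**Figure D4:**
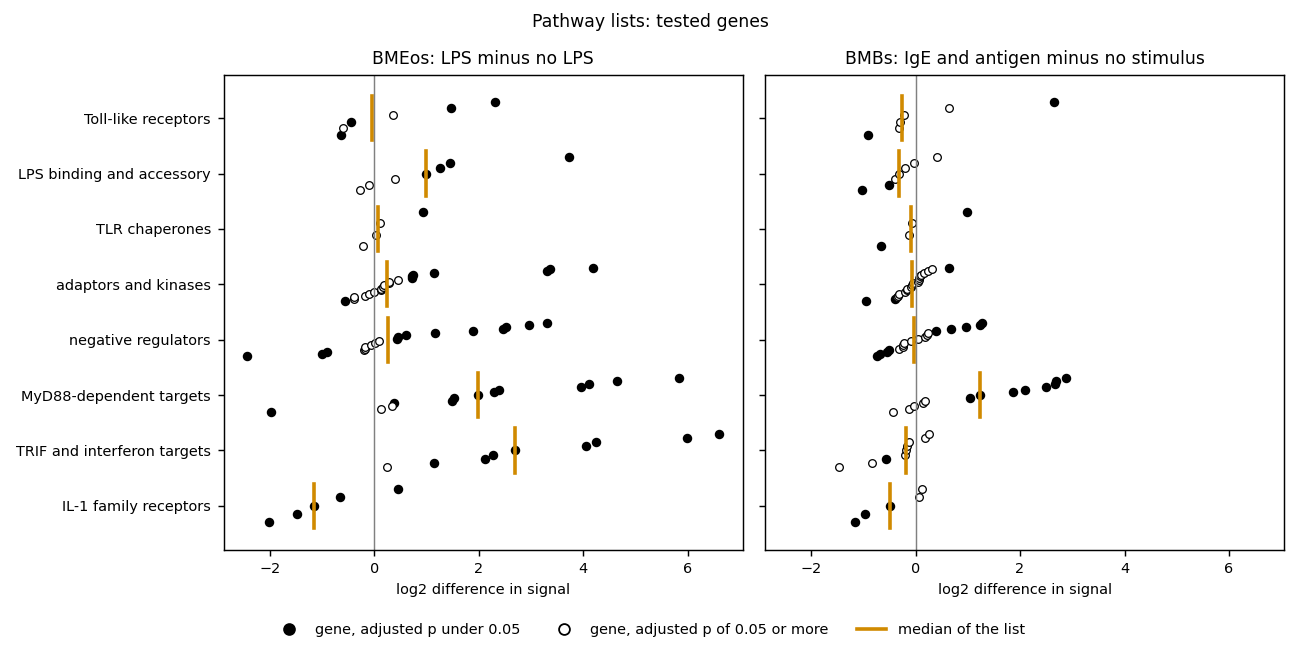
Log2 differences in signal with LPS in BMEos and with IgE in BMBs (horizontal axes) for every tested gene of 8 pathway lists (vertical axis), 1 point per gene, filled where limma's adjusted p is under 0.05, with the median of each list as a line. The MyD88 target list has medians of 1.98 with LPS and 1.23 with IgE, the TRIF and interferon target list 2.70 and -0.19. The TRIF and interferon list includes Ifit1, Ifit3 and Rsad2, which were above background on the LPS arrays only. The MyD88 list includes Il1a, above background on the LPS and IgE arrays only, and Csf2, above it with IgE only.

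Over the 10 arrays, the genes most like each member in their pattern were sought among 3171 named genes above background on at least 1 array with a standard deviation of at least 0.5. The arrays share cell types, so these correlations mostly follow them and are given as a description. Tlr4 was most like Smpd3 (Pearson r 0.99), Tlr13 most like Itgal (0.99), which encodes an integrin chain of leukocytes, and Tlr2 most like Ppp1r14b (0.98). Myd88 was most like Usb1 (0.99), Ly96 most like Sntb2 (0.98), and Tlr6 most like Satb1 (0.97). For Cd14, Zdhhc6, Relb and Parp14 each had an r of 0.98, and for Irak3, Gm7265 and Zbp1 each had 0.97. Cd14 was above background on the 2 LPS arrays only, so its r mostly sets them against signals below background. Irak2, which was high in mast cells and with LPS, was most like 6330407A03Rik (0.99), and Ticam1 had the weakest match, Ccl4 (0.94).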

How the data were processed

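RNA of 10 cell preparations was hybridized to Affymetrix Mouse Gene ST arrays, and the deposited log2 signals were made by the authors with RMA in the affy package. Versions of these tools and a genome build are not given in the sources used here. Of 34760 probe sets, 21640 had 1 gene symbol in the platform annotation, 1321 had several and 11799 had none, and the brightest probe set stood for a gene with more than 1. The named genes were 19937.

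The members, pathway lists and marker lists were chosen with earlier results of these data known. Genes above background on at least 1 array were tested with limma 3.58.1 in R 4.3.3, with Benjamini-Hochberg adjustment over all genes tested and a threshold of 0.05. Stimulus and genotype comparisons came from 10 arrays (13571 genes, 2 residual degrees of freedom), cell types from the 6 unstimulated arrays (12998 genes). With 1 array per condition, the number of arrays limits the precision. Scripts were tested on simulated data.

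All members were named, and of each pathway list up to 4 genes with the largest LPS difference, up to 3 with the largest difference between unstimulated BMEos and BMBs and up to 3 with the highest mean signal qualified. For likeness, the closest genes by Pearson r over 10 arrays qualified. Tab1, Zfp36, the receptors never above background and the marker genes given were chosen after their values were seen. The alternatives were centring, quantile normalization, probe set averaging, no filter, a 99th percentile background, a variance trend, fewer or all arrays, no genotype terms, leaving out pairs, and the methods' paired t-test. Python 3.11.15, pandas 2.3.3 and matplotlib 3.10.9 were also used.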

Additional observations from a re-analysis of the deposited data

Results flagged for a closer look

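The LPS difference in BMEos and the IgE difference in BMBs were set against each other in limma, and 4 members differed: Irak3 by 3.07, Cd14 by 1.48, Irak2 by 1.14 and Myd88 by 0.63 on the log2 scale, each higher for LPS. Cd14 was above background on the LPS arrays alone and was tested only through them, so its difference had to arise and 1.48 is no measured size. Cell type, agent, time and the sex of the donors differ together in this comparison and cannot be told apart.

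In BMBs, the adaptor genes had IgE differences of opposite sign in the 2 genotypes. Myd88 differed by 0.23 in Slpi-/- and by -0.06 in B6, a gap of 0.29, and Ticam1 by 0.27 in Slpi-/- and by -0.05 in B6, a gap of 0.32. These gaps rest on 1 pair each and were not tested.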

How the results depend on the processing

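Of 915 values of members under alternatives, 852 kept their side of the threshold, 49 lost a call, 14 gained one and 0 reversed. The methods' paired t-test, with 2 pairs in most comparisons, called 0 members after adjustment with LPS, with IgE and between cell types, and over all genes 0 with LPS, 0 with IgE, 0 between genotypes in BMEos and in BMBs, 1 between BMEos and mast cells, 0 between BMBs and mast cells and 0 between BMEos and BMBs. Leaving out 1 pair left 4 to 5 members and 1525 to 1534 genes called with LPS, 3 members and 1115 to 2169 genes with IgE, 0 genes between genotypes in BMEos, 0 to 1 members and 1 to 15 genes in BMBs, and 0 to 2 genes over all settings. Between genotypes in BMEos the count of 1 gene became 0 after quantile normalization, with no filter or with 4 arrays, and 6 with a variance trend, which gave 9 in BMBs. Over all settings 1 gene passed with centred arrays or the 99th percentile background, and 2 after quantile normalization or with a variance trend. Without the genotype terms that act as the replicate block, the LPS call of Tlr2 was lost (adjusted p = 0.0582 from limma), and Tlr6 passed with LPS (adjusted p = 0.0492 from limma) and in BMBs against mast cells (adjusted p = 0.0364 from limma). Leaving out pairs could not be fitted for the cell types, with 0 residual degrees of freedom, and the unstimulated B6 BMB array was left out as an alternative chosen after seeing the data, which gave 3860 called genes in BMBs against mast cells and 4351 in BMEos against BMBs. Calls without 1 pair of BMEos or BMBs, other than over all settings, rest on a spread taken from the other of these cell types. Without the unstimulated B6 BMB array, BMBs had no spread of their own. Signals below background limit Cd14, Tlr13 and Tlr6 to lower bounds of the fold in the comparisons named.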
